A study of Mus musculus with 2 samples.

Results

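The Usp17-like family of the mouse was examined in single embryonic stem cells (ES cells, pluripotent cells that self-renew in culture). Its members were taken by symbol from the feature table, which held 5 of them among 55415 features: Usp17la (ENSMUSG00000054568), Usp17lb (ENSMUSG00000062369), Usp17lc (ENSMUSG00000058976), Usp17ld (ENSMUSG00000057321) and Usp17le (ENSMUSG00000043073). The cells came from 1 line that carried 2 transgenes: GFP driven by the MERVL promoter (MERVL is an endogenous retrovirus transcribed in the 2-cell embryo) and histone H2B fused to the far-red protein mIFP. Single-cell transcriptomes were deposited as 2 libraries, MERVL GFP positive and MERVL GFP negative, both of mESC and both carrying the transgenes. The study set out to follow the fate of cells in the 2-cell-like state. Each group was 1 library and the labels give each library as its own batch, so no difference between the libraries was tested, and library and group cannot be told apart. All intervals are 95% intervals for counting error and leave out the spread between cells.

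Usp17-like proteins are cysteine proteases of the ubiquitin-specific protease class. They remove ubiquitin, a small protein that marks other proteins for degradation or changes their activity, from their substrates. The founding members were described in the mouse as cytokine-induced early genes of lymphoid cells, and the genes occur in tandem copies in mammals. Several members are known among the transcripts of the 2-cell embryo and of the rare ES cells that pass through a 2-cell-like state, in which the Zscan4 genes, DNA-binding proteins linked to telomere maintenance, are also transcribed.

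Of 4603 positive-library cells (138364094 UMIs, or counted molecules) 4596 passed the cell filter, as did all 3832 negative-library cells (156406894 UMIs). The median kept cell had 29554.5 and 39099.5 UMIs, and a median mitochondrial share of 2.56% and 1.60%. GFP stood at 204.6 CPM (UMIs scaled to the same total in each library) in the positive library and 0.454 CPM in the negative library, in the direction of the labels. The 10 pluripotency markers summed to 14960 CPM and 14490 CPM, and all 10 had UMIs in both libraries. The 6 lymphoid and myeloid markers summed to 5.96 CPM and 8.34 CPM. The libraries shared 3 cell barcodes, which carried 4 family UMIs in the positive and 0 in the negative library; the log2 ratio of the family between the libraries was 7.09 with and without them.

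All 5 genes lie on chromosome 7 of GRCm38 (mm10), in 2 places. Usp17ld occupies chr7:103249737-103252505 on the minus strand and Usp17lc chr7:103415072-103419880 on the plus strand. Farther along, Usp17le occupies chr7:104768049-104777470 and Usp17lb chr7:104840257-104842603, both on the minus strand, and Usp17la occupies chr7:104857009-104862667 on the plus strand. The gap between Usp17lc and Usp17le was 1348168 bases and held 104 annotated genes, 66 of them olfactory receptor genes. The gap from Usp17ld to Usp17lc was 162566 bases and that from Usp17le to Usp17la 79538 bases. Below, Usp17la, Usp17lb and Usp17le are called the Usp17la group, and Usp17lc and Usp17ld the Usp17lc pair; this grouping by position was adopted after the values had been seen. The annotated transcripts have 2 exons (Usp17lb, Usp17lc, Usp17ld) or 3 (Usp17la, Usp17le), with coding regions of 1401 bases in Usp17lb to 1635 bases in Usp17lc and Usp17ld. A pseudogene, Usp17le-ps, lies beside the Usp17la group at chr7:104652252-104653208, and it had 0 UMIs in both libraries.

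The copies are close to each other in sequence, which bears on how reads can be divided among them. The coding regions of Usp17lc and Usp17ld were 98.4% identical over 1635 aligned bases with 26 mismatches. The other pairs lay between 90.7% (Usp17lb and Usp17le) and 94.7% (Usp17la and Usp17le). In the alignment of all 5, 1206 of 1401 gap-free columns (86.1%) held the same base. The coding window below, read from GRCm38, is shown because it is a stretch in which the copies can be told apart. Capitals mark the 20 of its 60 columns at which at least 1 member differs, and positions count from the first base of each coding region.
Usp17la (coding bases 1344 to 1403): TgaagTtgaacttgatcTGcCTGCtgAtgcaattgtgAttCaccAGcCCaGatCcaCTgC
Usp17lb (coding bases 1338 to 1397): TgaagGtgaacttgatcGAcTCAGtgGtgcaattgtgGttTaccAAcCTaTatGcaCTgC
Usp17lc (coding bases 1401 to 1460): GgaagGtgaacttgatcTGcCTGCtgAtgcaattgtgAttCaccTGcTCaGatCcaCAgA
Usp17ld (coding bases 1401 to 1460): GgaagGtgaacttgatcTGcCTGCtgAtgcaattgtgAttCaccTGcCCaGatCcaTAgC
Usp17le (coding bases 1446 to 1505): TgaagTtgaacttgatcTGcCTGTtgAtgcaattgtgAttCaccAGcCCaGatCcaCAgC

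Over the whole annotated transcript, 44.5% of the 50-base words of Usp17lc and 51.0% of those of Usp17ld also occurred in another member. The values were 30.7% for Usp17le, 21.2% for Usp17lb and 16.1% for Usp17la. With words of 90 bases they were 33.5% (Usp17lc), 40.8% (Usp17ld), 11.4% (Usp17le), 11.8% (Usp17lb) and 4.44% (Usp17la). In the last 300 bases of the transcript, where 3' end libraries place their reads, shared 50-base words made up 0% (Usp17ld) to 18.7% (Usp17le). How reads that fit several genes were counted is not given in the sources used here, nor is which end of the transcript was read. Over whole transcripts Usp17lc and Usp17ld share the most words, and over the last 300 bases Usp17le does, so which member's UMIs are the least certain depends on the part that was read. Sums over the family do not depend on it except for reads that were dropped or counted for other genes. A small RNA gene, Gm25774, lies inside Usp17lc on the same strand.

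The sequence at the RefSeq starts of the genes was also much alike. RefSeq's table of promoters on GRCm38.p6 matched 4 of the 5 members, and Usp17le was not among them. RefSeq's starts differ from those of the GENCODE spans given above: the Usp17lc window lies inside its GENCODE span, and those of Usp17lb and Usp17la reach a few bases into theirs. The 250 bases before each RefSeq start are shown because all 5 members were higher in the positive library, and capitals mark the match to TATAAA, the core of the TATA box.
Usp17la (chr7:104856766-104857015, plus strand): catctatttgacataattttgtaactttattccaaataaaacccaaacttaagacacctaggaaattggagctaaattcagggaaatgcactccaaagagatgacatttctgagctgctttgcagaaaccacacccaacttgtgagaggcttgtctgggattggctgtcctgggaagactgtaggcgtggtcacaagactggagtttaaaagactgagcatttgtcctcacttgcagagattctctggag
Usp17lb (chr7:104842584-104842833, minus strand): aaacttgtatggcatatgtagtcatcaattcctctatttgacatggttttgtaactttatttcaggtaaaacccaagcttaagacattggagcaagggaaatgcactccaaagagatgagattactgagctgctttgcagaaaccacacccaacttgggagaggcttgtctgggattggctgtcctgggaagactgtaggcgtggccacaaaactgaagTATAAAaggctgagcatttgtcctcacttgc
Usp17lc (chr7:103416446-103416695, plus strand): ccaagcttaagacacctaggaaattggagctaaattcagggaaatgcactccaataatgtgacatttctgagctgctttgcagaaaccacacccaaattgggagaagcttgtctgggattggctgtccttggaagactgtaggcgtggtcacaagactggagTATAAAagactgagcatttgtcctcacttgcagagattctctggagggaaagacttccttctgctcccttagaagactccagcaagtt
Usp17ld (chr7:103252506-103252755, minus strand): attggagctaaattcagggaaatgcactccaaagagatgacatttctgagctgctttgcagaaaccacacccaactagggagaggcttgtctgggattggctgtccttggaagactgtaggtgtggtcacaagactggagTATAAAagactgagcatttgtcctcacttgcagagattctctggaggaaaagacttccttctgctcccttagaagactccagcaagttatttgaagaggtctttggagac

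Identity between these windows ran from 90.3% (Usp17lb and Usp17lc, 185 aligned bases) to 97.3% (Usp17la and Usp17ld, 186 aligned bases). TATAAA, searched on both strands, was found in 3 of the 4 windows and not in that of Usp17la, against 12.4% of 32851 windows of the same length. It began 31 bases before the RefSeq start of Usp17lb, 88 before that of Usp17lc and 110 before that of Usp17ld, within otherwise alike sequence. A core of the Dux binding motif was in 0 of the 4 windows and 0.177% of all windows. The octamer ATTTGCAT was in 0 of the 4 and 1.60% of all. These are matches of letters and not sites.

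The family was much higher in the positive library. Summed over the 5 genes there were 31851 UMIs, or 230.3 CPM (Poisson interval 227.8 to 232.8), in the positive library and 110 UMIs, or 0.703 CPM (0.578 to 0.848), in the negative library. The ratio was 327 (exact interval 272 to 399). In the size rule used here (at least 10 CPM in a group, 50 UMIs in all and a ratio of CPM + 1 of at least 4), all 5 members were higher in the positive library, where 3.0% of the 8042 genes that could be called were (7.01% at a ratio of 2). With TMM or median-of-ratios scaling 4 of the 5 passed, as Usp17ld fell under 10 CPM. By the same rule 0.0124% were lower (0.995% at a ratio of 2). The median log2 ratio was 4.68 over the 5 members and 0.14 over all those genes. The rule has no replicate behind it and describes these 2 libraries.

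Usp17la stood at 85.6 CPM (11833 UMIs) in the positive and 0.294 CPM (46 UMIs) in the negative library, a ratio of 291 (218 to 398). Usp17lb stood at 22.5 CPM (3107 UMIs) against 0.102 CPM (16 UMIs), a ratio of 220 (135 to 385). Usp17le stood at 29.7 CPM (4112 UMIs) against 0.198 CPM (31 UMIs), a ratio of 150 (106 to 221). The intervals of these 3 genes overlapped each other. Usp17lc stood at 82.0 CPM (11347 UMIs) against 0.0767 CPM (12 UMIs), a ratio of 1069 (612 to 2070). Usp17ld stood at 10.5 CPM (1452 UMIs) against 0.0320 CPM (5 UMIs), a ratio of 328 (140 to 1013). The interval of Usp17lc lay above those of the 3 genes of the Usp17la group and overlapped that of Usp17ld. Per kilobase of annotated transcript, the positive-library levels were 34.1 CPM for Usp17lc and 32.2 for Usp17la, then 15.8 for Usp17le, 14.4 for Usp17lb and 5.28 for Usp17ld.

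**Figure D1:**
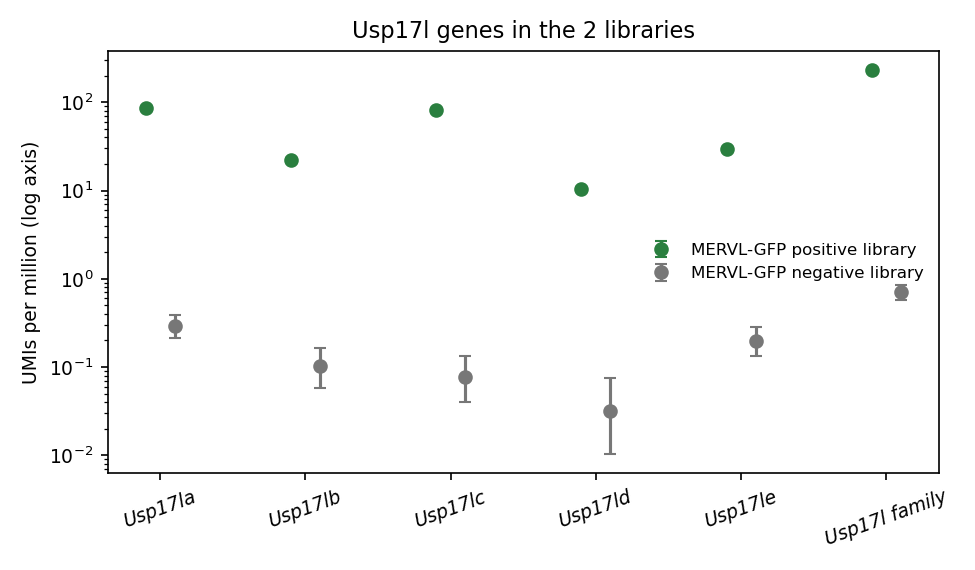
CPM of each Usp17l gene and of their sum in the MERVL-GFP positive (green) and MERVL-GFP negative (grey) library, on a log axis; bars are 95% Poisson intervals and are smaller than the points in the positive library. The positive library stands between 10.5 CPM (Usp17ld) and 85.6 CPM (Usp17la) for single genes, and the negative library below 0.3 CPM for each.

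Cells were thinned to 10000 UMIs to compare shares of cells between libraries of different depth, which left 4402 positive and 3824 negative cells. A family UMI was then found in 52.2% of positive cells (50.7 to 53.6) and in 0.523% of negative cells (0.320 to 0.807). The unthinned shares were 75.3% and 1.44%. By member, the thinned positive shares were 33.1% for Usp17la, 27.7% for Usp17lc, 20.9% for Usp17le, 13.2% for Usp17lb and 9.47% for Usp17ld. The negative-library shares were 0.288%, 0.0785%, 0.209%, 0.0523% and 0.0262% in the same order.

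Within the positive library the family was unevenly spread over cells. The median cell had 2 family UMIs before thinning, the upper quartile was 7 and the highest cell had 256. The 356 cells with the most family UMIs, 8.09% of the 4402, held as many as all the other cells together. After thinning, 1070 cells had UMIs of 1 member, 553 of 2, 362 of 3, 221 of 4 and 90 of all 5. Members were often found singly at this depth, and all 5 in few cells.

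The level of the family followed that of the Zscan4 genes. Cells were put in 4 classes by their thinned UMIs of Zscan4a to Zscan4f: 0 (1933 cells), 1 to 4 (1608), 5 to 19 (625) and 20 or more (236). These classes are ranges of a count and not cell types, and 1090 of the 1933 cells in the lowest class had a Zscan4 UMI before thinning. The family stood at 59.1 CPM in the cells at 0 Zscan4 (57.2 to 61.0), then 184.9 CPM, 691.1 CPM and 1407 CPM. The highest class was 23.8-fold above the lowest (22.9 to 24.8), and each step was larger than the counting error of its neighbours. In the 843 cells with no Zscan4 UMI before thinning either, the family stood at 49.3 CPM (46.6 to 52.1), and the highest class was 28.5-fold above them (26.9 to 30.3). The median depth was lower in the higher classes (32916, 30488, 24230 and 18813.5 UMIs), and the 10 pluripotency markers summed to 16064, 15417, 11615 and 7755 CPM. The 6 primitive endoderm markers, described further on, summed to 205.0, 197.7, 132.4 and 56.1 CPM. The part of these in the family's levels was not tested. All 5 members passed the size rule between the highest class and the cells at 0 Zscan4, in which 4.89% of 8520 genes were higher and 0.434% lower (11.7% and 8.45% at a ratio of 2).

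Usp17la stood at 20.2, 72.7, 241.6 and 566.6 CPM from the lowest to the highest Zscan4 class, a ratio of 28.1 (26.3 to 30.0). Usp17lb stood at 3.96, 16.1, 69.9 and 176.1 CPM, and its ratio of 44.5 (38.6 to 51.4) was above those of the other members. Usp17le stood at 8.45, 23.0, 82.4 and 206.4 CPM, a ratio of 24.4 (22.0 to 27.2). Usp17lc stood at 23.8, 65.7, 266.2 and 383.6 CPM, and its ratio of 16.1 (15.1 to 17.3) was below those of the other members. Usp17ld, the nearest copy of Usp17lc, stood at 2.68, 7.43, 31.0 and 74.3 CPM, a ratio of 27.7 (23.1 to 33.5). In the highest class 97.5% of thinned cells had a family UMI, against 31.5% of the cells at 0 Zscan4, and 92 of its 236 cells had UMIs of all 5 members before thinning.

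The family also rose with GFP. The top GFP class (5 or more UMIs of 1 gene, 775 cells) is wider than the top Zscan4 class (20 or more UMIs of 6 genes, 236 cells). The ratio by GFP is therefore not set against that by Zscan4. In the classes of 0 (1679 cells), 1 (846), 2 to 4 (1102) and 5 or more (775) thinned GFP UMIs the family stood at 80.5, 169.3, 330.3 and 546.6 CPM, a ratio of 6.79 between the ends (6.56 to 7.03). Here the Usp17lc pair had the larger ratios. Usp17lc had a ratio of 9.27 (8.73 to 9.86) and Usp17ld of 10.1 (8.45 to 12.2), while Usp17la had 5.27 (4.98 to 5.57), Usp17le 5.31 (4.83 to 5.84) and Usp17lb 6.86 (6.11 to 7.71). The intervals of the Usp17lc pair lay above those of the Usp17la group.

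**Figure D2:**
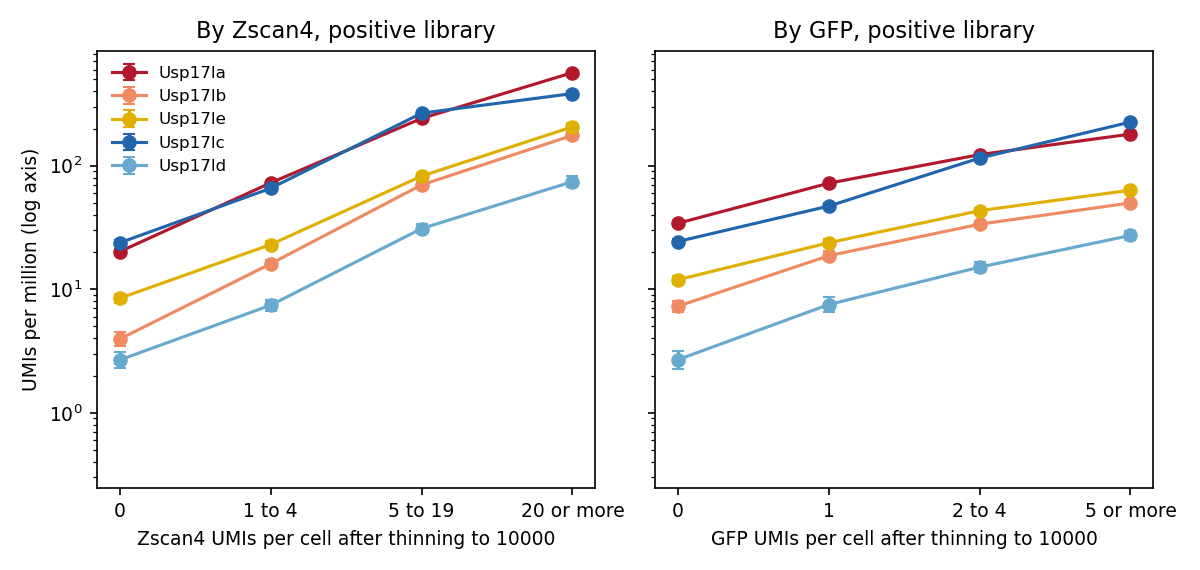
CPM (log axis) of each member in positive-library cells grouped by thinned Zscan4 UMIs (left) and thinned GFP UMIs (right), with 95% Poisson intervals. Usp17la stands above Usp17lc in the highest Zscan4 class (566.6 and 383.6 CPM) and below it in the highest GFP class (180.2 and 225.7 CPM); the levels are not scaled by length.

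Zscan4 and GFP were then crossed. Among cells with 0 UMIs of GFP, the family was 38.6-fold higher with 20 or more Zscan4 UMIs than with 0 (35.0 to 42.6). It stood at 1312 CPM in 24 cells against 33.9 CPM in 1009 cells, with median depths of 20353.5 and 33670 UMIs. The interval does not reflect how few the 24 cells are. Among cells with 5 or more GFP UMIs the ratio was 7.41 (6.87 to 8.0). In the other direction, cells with 5 or more GFP UMIs were 5.66-fold above those with 0 where Zscan4 was 0 (5.18 to 6.18), 3.93-fold where it was 1 to 4, 1.78-fold where it was 5 to 19 and 1.09-fold where it was 20 or more (0.996 to 1.18). The last interval includes 1, and the cells at 0 GFP in that ratio are the same 24. For the Usp17la group the 4 ratios were 4.21, 2.93, 1.31 and 1.0, and for the Usp17lc pair 7.94, 6.02, 2.80 and 1.28. In each Zscan4 class the Usp17lc pair had the higher ratio; in the highest class the intervals of the 2 groups (0.904 to 1.11 and 1.09 to 1.5) overlapped.

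**Figure D3:**
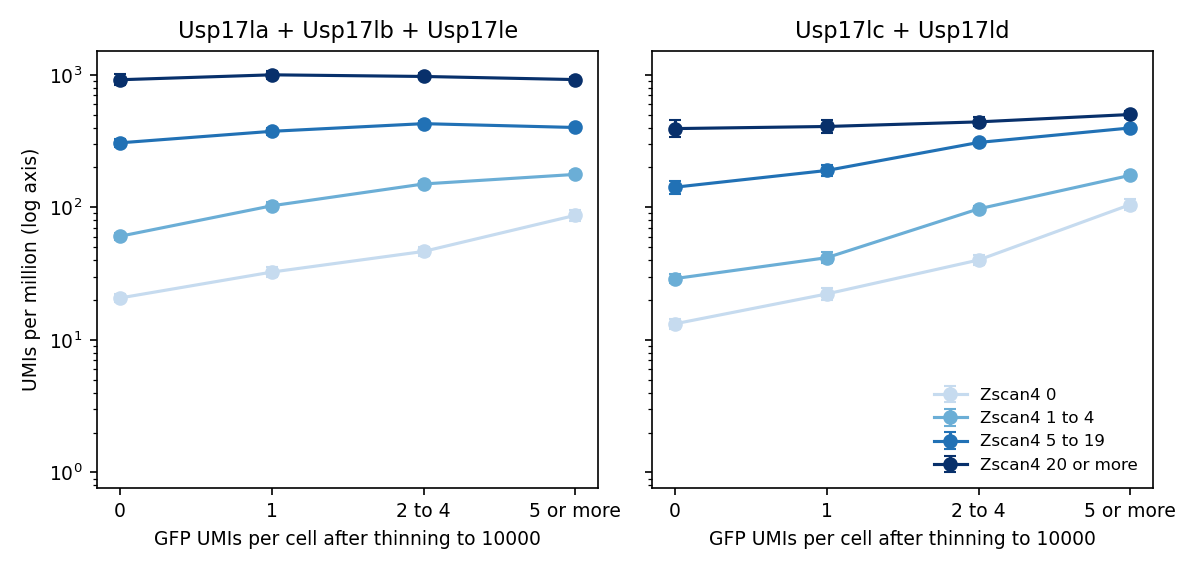
CPM (log axis) of the Usp17la group (left) and the Usp17lc pair (right) against thinned GFP UMIs, with a line for each class of thinned Zscan4 UMIs and 95% Poisson intervals. In cells with 20 or more Zscan4 UMIs the Usp17la group stays between 918.8 and 1001 CPM over the GFP classes, while in cells with 0 Zscan4 UMIs it runs from 20.7 to 87.1 CPM and the Usp17lc pair from 13.2 to 105.0 CPM.

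Family UMIs were also counted in cells that read 0 on both axes after thinning. Of 1009 cells with 0 thinned UMIs of Zscan4 and of GFP, 44.5% had no family UMI before thinning. A group of 34 of them had 5 or more and held 28.1% of the family UMIs of these cells, and the highest had 30. Before thinning, 708 of the 1009 cells had a UMI of Zscan4 or GFP. In the other 301 cells the family stood at 24.2 CPM (21.1 to 27.6), 43.2% of cells had a family UMI (37.5 to 49.0) and the highest had 11. The level that free RNA gives in the positive library was not measured, so single UMIs in such cells are not read as transcription in them. Over all thinned cells, 73.5% of the cells with a family UMI also had Zscan4 and 76.1% had GFP. Conversely, 68.4% of the cells with Zscan4 and 64.2% of those with GFP had a family UMI, against 31.5% of the cells at 0 Zscan4 and 32.6% of those at 0 GFP.

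The members differed in which cells carried them. Over 4402 cells the Pearson correlation of log2(1 + thinned UMIs) was 0.63 between Usp17la and Usp17lb, 0.53 between Usp17la and Usp17le, 0.41 between Usp17lb and Usp17le and 0.41 between Usp17lc and Usp17ld. Pairs that cross the 2 places lay between 0.29 and 0.40. In the 861 cells with 5 or more Zscan4 UMIs, pairs within a place stood at 0.62 (Usp17la and Usp17lb), 0.45 (Usp17la and Usp17le), 0.34 (Usp17lc and Usp17ld) and 0.32 (Usp17lb and Usp17le). Pairs that cross the places ran from 0.12 (Usp17lc and Usp17le) to 0.27 (Usp17ld and Usp17le). The points are cells of 1 library at a fixed depth, and counts this sparse weaken all correlations.

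The share of each cell's family UMIs that came from the Usp17lc pair showed the same more directly. In the positive library as a whole this share was 40.2% (39.6 to 40.7). In the 900 cells with at least 10 family UMIs it was 10% or less in 209 cells (23.2%) and 90% or more in 99 cells (11%). Its variance over cells was 11.3 times that of binomial draws from 1 common share. Between Usp17la and Usp17lc alone, 683 cells had at least 10 UMIs, and 42.5% of them lay at one edge or the other, 143 with Usp17lc at 10% or less and 147 with it at 90% or more. The ratio of variances for this pair was 11.7, and no other pair of single genes across the places was measured. Within a place it was lower: 2.58 for Usp17la with Usp17lb, 2.84 for Usp17la with Usp17le and 4.20 for Usp17lb with Usp17le. It was 2.97 for Usp17lc with Usp17ld, and how reads were divided between those near-identical copies is not known. The share of cells at an edge also reflects how unequal the 2 genes are. Usp17lb held 23.2% of the UMIs of Usp17la and Usp17lb, and 106 of 404 cells (26.2%) lay at its lower edge and 1 at its upper edge. Usp17ld held 7.71% of the UMIs of Usp17lc and Usp17ld, and 243 of 351 cells (69.2%) lay at its lower edge and 1 at its upper edge.

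**Figure D4:**
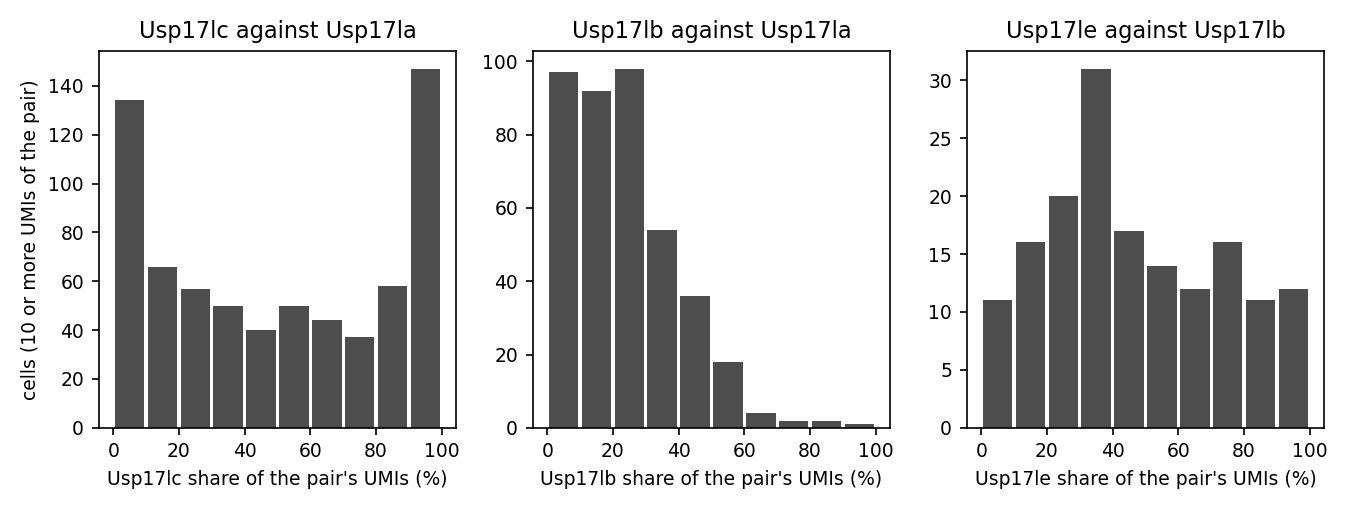
Number of positive-library cells by the share of a pair's UMIs that came from the first gene, among cells with at least 10 UMIs of the pair: Usp17lc against Usp17la (683 cells), Usp17lb against Usp17la (404) and Usp17le against Usp17lb (160). The first panel has its tallest bars at both ends, with 134 cells from 0 up to 10% and 147 from 90 to 100%, and the others do not.

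Cells at the edges differed in other transcripts. The 209 cells with a Usp17lc pair share of 10% or less had 622.4 CPM of Usp17la and 31.1 CPM of Usp17lc, and the 99 cells with 90% or more had 31.4 CPM of Usp17la and 1020 CPM of Usp17lc. These values follow from the choice of the cells. The summed family was 982.6 CPM in the former and 1117 CPM in the latter. Zscan4 stood at 1119 CPM (1092 to 1146) and 484.2 CPM (456.5 to 513.2), and GFP at 355.2 CPM (340.1 to 370.9) and 514.8 CPM (486.2 to 544.6). The 6 primitive endoderm markers (Gata6, Gata4, Sox17, Sox7, Pdgfra and Dab2) summed to 46.0 CPM and 407.4 CPM. Dab2, an adaptor protein of endocytosis, made up 14.9 and 276.3 CPM of these sums, while Gata6 stood at 15.1 and 78.5 CPM, Pdgfra at 3.26 and 33.5 CPM and Sox17 at 10.5 and 10.6 CPM. Primitive endoderm is the lineage of the blastocyst that gives rise to the yolk sac, and ES cultures are known to hold cells that transcribe its genes. In the positive library as a whole the markers summed to 187.6 CPM and in the negative library to 90.5 CPM, with UMIs of all 6 in both.

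The make-up of the family moved with those markers, and their part in it was not tested. In cells with 0, 1 to 4 and 5 or more thinned marker UMIs (2986, 975 and 441 cells) the Usp17lc pair held 34.6%, 41.6% and 73.2% of family UMIs. Among cells with 5 to 19 Zscan4 UMIs, the 574 with under 5 marker UMIs had 689.4 CPM of the family and the 51 with 5 or more had 710.0 CPM (665.8 to 756.5). In the same cells Usp17lc stood at 241.9 and 533.6 CPM and Usp17ld at 29.6 and 46.7 CPM, while Usp17la stood at 256.9 and 74.1 CPM, Usp17lb at 74.8 and 17 CPM and Usp17le at 86.4 and 38.5 CPM. Each of these 5 differences was larger than the counting intervals. Among cells with 1 to 4 Zscan4 UMIs, the 177 cells with 5 or more marker UMIs had 111.1 CPM of Usp17lc against 60.1 CPM in the others, and 35.6 CPM of Usp17la against 77.3 CPM. Usp17lb stood at 5.87 against 17.4 CPM and Usp17le at 13.4 against 24.2 CPM, while the intervals of Usp17ld overlapped, at 9.79 (7.38 to 12.7) against 7.14 CPM (6.38 to 7.96). The cells of both classes had like depth (medians of 24519 and 24211 UMIs in the former comparison). In the highest Zscan4 class, 1 cell had 5 or more marker UMIs, so no value is given there.

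Within each class of endoderm markers the share was higher at 5 or more GFP UMIs than at 0. In cells with 0 marker UMIs the Usp17lc pair held 29.9% of family UMIs where GFP was 0 (28.2 to 31.6) and 36.9% where GFP was 5 or more (35.7 to 38.1). With 1 to 4 marker UMIs the shares were 37.9% and 52.2%, and with 5 or more 56.2% and 85.7%. The order was not the same at each step, since cells with 1 to 4 marker UMIs and 1 GFP UMI had a share of 27.6% (25.4 to 29.8), below that at GFP 0. Across all cells the difference between the GFP classes was 12.7 percentage points, against 7.06 in cells with 0 marker UMIs. The 6 trophoblast markers summed to 11.1 CPM in the positive and 4.40 CPM in the negative library, and to 12.4, 10.4, 9.15 and 8.50 CPM from the lowest to the highest Zscan4 class. The 7 fibroblast markers summed to 12.8 and 3.14 CPM in the libraries and to 10.2, 14.1, 17.4 and 19.96 CPM over the classes, where Postn, Lum and Dcn had 0 UMIs in the highest. Their part in the family's levels was not tested.

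**Figure D5:**
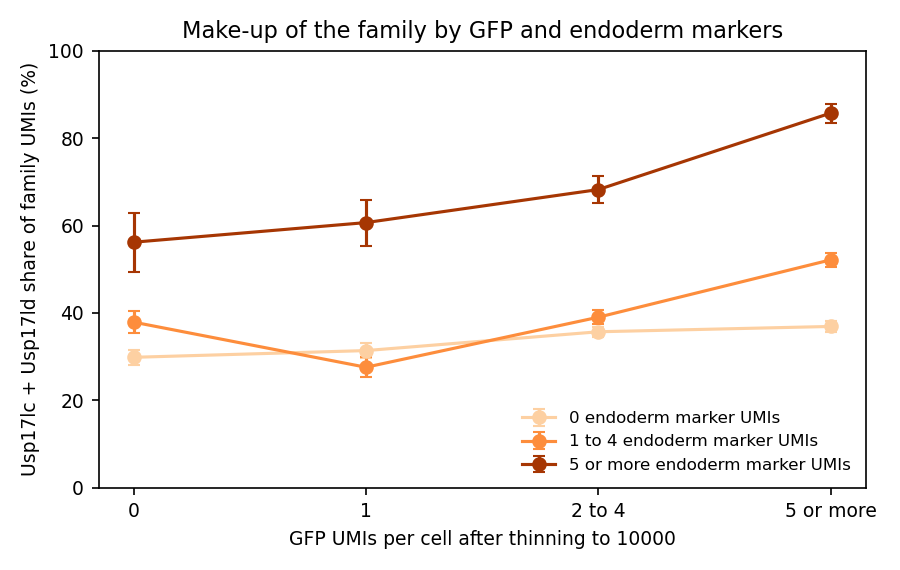
Share of family UMIs from the Usp17lc pair against thinned GFP UMIs, with a line for each class of primitive endoderm marker UMIs; bars are exact 95% binomial intervals. The share is 85.7% in cells high in both and 29.9% in cells at 0 of both after thinning.

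In the negative library 55 of 3832 cells had a family UMI before thinning, 42 of them with 1 UMI and 8 with 2. The other 5 cells had 5 to 20 UMIs and held 52 of the 110 (47.3%). The highest cell had 20 UMIs from all 5 members, with 3 UMIs of Zscan4 and 0 of GFP. Of the 55 cells 14 (25.5%) had a Zscan4 UMI, against 0.371% of the other 3777 cells, and 5 (9.09%) had a GFP UMI, against 1.35%. The Usp17lc pair gave 17 of the 110 UMIs (15.5%, interval 9.27 to 23.6), against 40.2% in the positive library. The interval takes UMIs as independent, while 5 cells held 52 of the 110, so it is too narrow to settle this difference.

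Other genes of the ubiquitin system were set beside the family. From the list of 85 other deubiquitinase genes, 59 could be called between the libraries. Usp26 was higher, at 46.1 CPM in the positive and 4.65 CPM in the negative library, and 0 were lower; 3.0% of all genes were higher and 0.0124% lower by the same rule. Their median log2 ratio was 0.23, against 0.14 over all genes. The next largest were Vcpip1 (33.5 and 18.8 CPM), Usp38 (18.6 and 10.3 CPM) and Usp48 (142.1 and 85.7 CPM), and the smallest were Usp28 (25.4 and 40.6 CPM), Mindy1 (10.6 and 14.2 CPM), Usp10 (86.7 and 105.8 CPM) and Uchl3 (250.5 and 303.0 CPM). Between the highest Zscan4 class and the cells at 0 Zscan4, 65 could be called: Usp9y was higher (19.3 and 2.48 CPM) and Usp46 lower (2.34 and 17.4 CPM). Here 4.89% of all genes were higher and 0.434% lower. Usp26 stood at 102.6 and 35.7 CPM, Stambpl1 at 12.5 and 3.96 CPM and Usp53 at 37.0 and 14.1 CPM, while Usp3 stood at 11.3 and 21.1 CPM, Usp10 at 58.2 and 95.7 CPM and Usp34 at 81.6 and 132.1 CPM.

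The weight of the family among deubiquitinase transcripts was therefore very different between groups of cells. It held 6.24% of all deubiquitinase UMIs in the positive library (6.17 to 6.30) and 0.0233% in the negative library (0.0192 to 0.0281). By Zscan4 class the share was 1.67%, 5.04%, 17.1% and 28.8%. The other 85 genes together stood at 3476, 3484, 3360 and 3473 CPM in those classes, so that the share followed the family's own level. These are shares of UMIs and not of protein or activity.

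The polyubiquitin gene Ubb stood at 334.1 CPM in the positive and 408.4 CPM in the negative library, and at 268.2 CPM in the highest Zscan4 class against 346.3 CPM in cells at 0 Zscan4. Rps27a, which encodes ubiquitin fused to a ribosomal protein, stood at 4491 and 5351 CPM in the libraries. Neither passed the size rule in either comparison. Among genes whose products have been described as substrates of Usp17 proteins, Snai1, a repressor of epithelial genes, was higher in the positive library (23.6 and 1.98 CPM). Ccna2, cyclin A2, stood at 204.3 and 105.7 CPM, Rce1, a protease that trims prenylated proteins, at 24.2 and 24.7 CPM, and Cdc25a, a phosphatase of the cell cycle, at 40.2 and 52.3 CPM. In the highest Zscan4 class against the cells at 0 Zscan4, Snai1 stood at 44.2 and 12.6 CPM and did not pass the size rule, Ccna2 stood at 330.5 and 167.4 CPM, Rce1 at 13.6 and 25.9 CPM and Cdc25a at 26.3 and 45.6 CPM. These are transcript levels, which say nothing of protein stability.

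The genes most like the family across the 4402 cells, of 14007 with at least 50 thinned UMIs, were Eif1ad8 (Pearson r = 0.71), Gm21761 (0.71), Gm20767 (0.69), Eif1ad15 (0.68), Gm21818 (0.67), Eif1ad7 (0.67), Eif4a3l1 (0.67), Eif1ad6 (0.65), Platr31 (0.63) and Prex2 (0.61). The 4 Eif1ad genes are copies related to a translation initiation factor and Eif4a3l1 is related to a core protein of the exon junction complex, while Platr31 is a long noncoding RNA. They may share reads among copies in the same way. Eif1ad8 stood at 650.3 CPM in the positive and 0.761 CPM in the negative library. Prex2, an exchange factor for Rac, stood apart from the others in the negative library, at 11.4 CPM. The Usp17la group was closest to Eif1ad7 among the 10 (0.62) and the Usp17lc pair to Eif4a3l1 (0.67). Zscan4d ranked 21st with 0.56 and GFP 70th with 0.45. The sum of Zscan4a to Zscan4f, which was not itself ranked, had r = 0.655 with the family over the same cells. All points share 1 library and a fixed depth.

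Few of the genes between the 2 places were detected at this level. Of the 101 genes between Usp17lc and Usp17le that were measured, 3 reached 10 CPM in a library or a Zscan4 class: Trim6, Trim12c and the olfactory receptor gene Olfr655. In the positive library Trim6 stood at 56.1 CPM and Olfr655 at 30.9 CPM, within the range of the members. By class, Trim6 stood at 52.6 CPM in cells at 0 Zscan4 and 56.7 CPM in the highest class, Trim12c at 8.13 and 19.5 CPM and Olfr655 at 23.0 and 110.7 CPM. The genes between Usp17ld and Usp17lc, 8 of them measured, had 13 UMIs in all in the positive library, and the 1 gene other than Usp17lb that lies between Usp17le and Usp17la had 9.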

How the data were processed

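Single-cell transcriptomes of 2 libraries, 1 per group, were used. The deposited matrices hold raw integer counts, read here as UMIs. Per the submitters' processing notes FastQC 0.11.2, Trim Galore 0.6.4, STAR 2.7.6a and mm10 were used; the capture, cell calling and treatment of reads with several matches are not given in the sources used here. Cells with at least 1000 UMIs, 500 genes and at most 20% mitochondrial UMIs were kept, with no doublet caller. UMIs were summed over cells and scaled to CPM, with exact Poisson, Clopper-Pearson and conditional ratio intervals (95%). Log2 ratios use CPM + 1. Shares and classes used cells thinned to 10000 UMIs, which left out 194 positive and 8 negative cells; levels by class are unthinned sums. Coordinates are from GENCODE M21 (GRCm38), which held 52081 of 55414 feature IDs. Named genes were the 5 members, the 10 most correlated genes, and, of the deubiquitinase, ubiquitin and substrate lists, those past the size rule and about 4 at each end of the ratios. The deubiquitinase list left out 3 symbols that name no such enzyme (Usp46os1, Usp46os2, Usp6nl). Some genes of the ubiquitin and substrate lists are not reported here. The members and lists were chosen with earlier results of these data known. The size rule, the ratio intervals and the thinning were tested on simulated independent counts, with no added spread between cells. The other steps were not tested in this way. Software was R 4.3.3 with edgeR 4.0.16 (scaling factors) and Python 3.11.15 with pandas 2.3.3, scipy 1.17.1, matplotlib 3.10.9 and numpy 2.4.6.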

Additional observations from a re-analysis of the deposited data

How the results depend on the processing

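No paired analysis was possible because there was a single library in each group. Of 151 alternative values none changed sign, but shares and counts of genes could not have done so. For the main results 27 alternatives moved and 41 did not, and for the other results 45 moved and 38 did not. A value moved if it left the counting interval of the main setting, or for counts of genes if it differed by more than a set factor. The family's log2 ratio between the libraries, 7.09, was 6.88 with TMM scaling or the median of ratios, 7.30 with CPM outside ribosomal protein and mitochondrial genes, 7.45 with the mean of each cell's CPM, 8.16 with a pseudocount of 0.1 and 8.36 with none. TMM and the median of ratios moved the median of all genes from 0.14 to -0.14. The share of cells with a family UMI was 40.9% in the positive library when thinned to 5000 UMIs and 75.3% without thinning, and 1.44% in the negative library without thinning. The log2 ratio between the end classes of Zscan4, 4.55, was 4.11 after thinning to 5000, 4.46 with the mean of each cell's CPM, 4.66 with Zscan4 pseudogenes counted and 4.81 against cells with 0 UMIs before thinning. For GFP, 2.75, it was 2.63 after thinning to 5000 and 3.04 against cells with 0 UMIs before thinning. Other deubiquitinase genes higher between the libraries numbered 2 with a minimum of 1 CPM or none (Usp26 and Usp9y, the latter at 5.78 and 0.102 CPM), and by Zscan4 class 5 of 65 (7.69%) at a ratio of 2, where 11.7% of all genes were higher. The Usp17lc pair's share, 40.2%, was 38.7% as the mean over cells. These alternatives and the next were partly chosen after the data had been seen. The share of cells at either edge, 34.2%, was 29.4% in cells with 5 or more Zscan4 UMIs. The difference of the pair's share by endoderm markers, 36.1 points, was 33.1 at 3 and 29.4 at 10 marker UMIs, 32.7 and 42.4 within Zscan4 1 to 4 and 5 to 19, and 40.4 as a mean over cells. That by GFP, 12.7 points, was 7.06 without marker UMIs and 15.0 as a mean over cells. The cause of these shifts was not tested. With 1 library per group and 110 family UMIs in the negative library, ratios of single members are known within a factor set by 5 to 46 UMIs.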

Other observations

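Genes were ranked by the correlation of their log2(1 + thinned UMIs) with the Usp17lc pair's share over the 900 cells with at least 10 family UMIs, among 9477 genes; these were chosen after their values were seen and no test was made. The highest were Lmx1a (r = 0.63), a homeobox factor, Atpsckmt (0.60), Gm13228 (0.59), Scamp1 (0.58), Platr31 (0.57) and Gm44739 (0.56). Lmx1a stood at 62.6 CPM in the cells with a share of 10% or less, 346.2 CPM in those between and 1041 CPM in those with 90% or more. Sp110, a gene of the 2-cell-like list, stood at 63.3, 322.6 and 721.5 CPM in the same order (r = 0.50), while Zscan4d of that list stood at 435.4, 428.6 and 215.2 CPM (r = -0.11) and Zscan4c at 312.1, 285.4 and 149.4 CPM (r = -0.16).

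At the other end were Igfbp2 (-0.53), a binding protein of insulin-like growth factors, Chchd10 (-0.50), Mtf2 (-0.50), a Polycomb-associated protein, and Kdm5b (-0.40), a histone demethylase. Igfbp2 stood at 1512, 1007 and 332.7 CPM. Nanog, a pluripotency factor, stood at 416.6, 291.0 and 106.9 CPM (r = -0.34), while the 10 pluripotency markers together stood at 11862, 11586 and 10627 CPM. In the 535 of these cells with 0 endoderm marker UMIs the correlation was 0.54 for Lmx1a and -0.40 for Igfbp2.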
